A study of Mus musculus with 32 samples.

Results

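The 45 genes described here encode the machinery that copies DNA in S phase. The rule lists them by symbol, and all 45 were found among the 24885 identifiers of the count table and passed the filter on low counts. RNA of mouse bone marrow-derived macrophages (strain C57BL/6 for both genotypes) was sequenced in 32 libraries, 4 in each of 8 groups, so that n = 4 in every group mean below. The groups crossed wild-type with Trem2 knockout cells (Trem2–/–, T2KO in the labels), normal with low M-CSF, and cells given LPS at 10 ng/ml for 4 hours with cells not given it. The labels describe an overnight culture in 0.5% or 10% LCCM, which is medium conditioned by L cells and a source of M-CSF. No label ties low M-CSF to 0.5% and normal to 10%, and that reading is an inference. The knockout cells came from Trem2–/– mice made in an earlier study. Whether libraries of 1 group stand for different mice, or even different dishes, is not in the labels, so p-values measure only the spread between these libraries, which may be technical.

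DNA replication starts when the origin recognition complex, with Cdc6 and Cdt1, loads the ring-shaped MCM helicase on DNA. Cdc45 and the GINS complex then switch the helicase on, polymerases alpha, delta and epsilon copy both strands around the sliding clamp PCNA, and ribonucleotide reductase and thymidylate synthase supply the building blocks. Most of these genes are transcribed in late G1 and S phase under E2F factors, and M-CSF is the signal that drives macrophages through that point of the cell cycle. In bulk RNA, fewer cells in S phase and less RNA per cell cannot be told apart.

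The promoters of the members were searched because E2F factors are known to bind TTTGGCGC, TTTCCCGC, TTTGCCGC or TTTCGCGC. RefSeq promoters (GRCm38.p6, 250 bases before to 50 after a start) were at hand for 37 members. A match to any of the 4 forms on either strand, overlaps between forms allowed, was present for 16 of these 37 genes (43.2%) and for 2.6% of all 27025 genes with a promoter. The shorter CCAAT box, on either strand, was present for 25 of the 37 (67.6%) and for 41.1% of all genes. A match describes letters only and is not evidence of binding. In knockout cells in low medium, LPS raised 7 of 45 members (15.6%, against 26.5% of all genes) and lowered 26 (57.8%, against 41%). Of these 7, Mcm6 and Rfc3 hold an E2F match in their promoter window, and Timeless, Mcm10, Tyms, Rrm2 and Pcna hold none. The stretches below are the 250 bases before the start of 4 of them, chosen to show 2 with and 2 without a match. They lie at chr1:128359706-128359955 (Mcm6, minus strand), chr5:151651209-151651458 (Rfc3, minus strand), chr2:132253181-132253430 (Pcna, minus strand) and chr12:24708004-24708253 (Rrm2, plus strand). Capitals mark whole matches to the E2F forms. Mcm6 holds 3, of which 2 overlap, Rfc3 holds 1, and Pcna and Rrm2 hold none in these bases.
Mcm6: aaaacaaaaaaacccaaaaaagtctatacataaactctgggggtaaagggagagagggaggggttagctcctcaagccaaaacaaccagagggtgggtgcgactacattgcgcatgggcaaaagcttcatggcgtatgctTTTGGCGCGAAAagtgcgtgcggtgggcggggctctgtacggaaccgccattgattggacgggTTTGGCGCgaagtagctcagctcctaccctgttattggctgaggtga
Rfc3: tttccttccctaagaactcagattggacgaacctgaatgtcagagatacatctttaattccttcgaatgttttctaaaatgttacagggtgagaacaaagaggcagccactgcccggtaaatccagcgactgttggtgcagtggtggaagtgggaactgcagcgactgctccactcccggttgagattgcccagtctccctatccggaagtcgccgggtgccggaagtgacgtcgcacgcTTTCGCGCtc
Pcna: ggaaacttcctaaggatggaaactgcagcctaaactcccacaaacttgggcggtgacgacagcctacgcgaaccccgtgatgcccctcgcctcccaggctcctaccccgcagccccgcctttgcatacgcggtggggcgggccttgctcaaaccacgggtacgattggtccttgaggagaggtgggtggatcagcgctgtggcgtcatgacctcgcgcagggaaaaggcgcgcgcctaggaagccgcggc
Rrm2: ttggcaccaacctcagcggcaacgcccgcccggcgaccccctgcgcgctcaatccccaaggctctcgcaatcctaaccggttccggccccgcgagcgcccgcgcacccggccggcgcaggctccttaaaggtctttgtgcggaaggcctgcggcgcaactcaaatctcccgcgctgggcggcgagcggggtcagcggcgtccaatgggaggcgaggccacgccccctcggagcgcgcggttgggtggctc
In wild-type cells without LPS, all 16 members with a match were lower in low medium (median log2 change -1.40), as were 19 of the 21 without one (median -1.79), where 21.9% of all genes were lower. When LPS was added to wild-type cells kept in low medium, 15 of the 16 were lower (median -1.95) and 13 of the 21 (median -1.08), where 33.6% of all genes were lower. In knockout cells in low medium, LPS lowered 9 and raised 2 of the 16 (median -1.11). It lowered 11 and raised 5 of the 21 (median -1.02). Which of these sets had the lower median thus differed between comparisons, and the difference was not tested.

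Total counts per library ranged from 3068863 to 15585423, with a median of 5596111. Levels are given as CPM, which are counts scaled by TMM to a common library size. Scaled by total counts alone, without the TMM factors, 3 counts correspond to between 0.192 and 0.978 CPM. The TMM factors ran from 0.598 to 1.37, and 3 counts are a higher level than this in libraries with a factor under 1. Adjusted p-values come from edgeR's quasi-likelihood test with Benjamini-Hochberg adjustment over the 11244 genes tested, and a gene was called at an adjusted p under 0.05. In each of the 4 conditions, every knockout library had less Trem2 than every wild-type library (3.65 to 132 against 194 to 517 CPM). The knockout level was highest in low medium without LPS, at 99 to 132 CPM against 371 to 517 CPM in wild-type, and lay between 3.65 and 9.01 CPM in both media with LPS. Where these reads lie relative to the deletion was not tested. All 8 macrophage markers were present in every group, with a summed level of 4390 to 11200 CPM per library. Markers of lymphocytes (0 to 5.44 CPM), erythroid cells (0 to 0.827 CPM) and stromal cells (0 to 5.56 CPM) were at or near 0. Within most groups, library 1 was closest to 3 and library 2 to 4. A chi-square divided by its degrees of freedom gave 4.03 to 9.5 in 14 of 16 such pairs and 9.73 to 81.5 in the other 32 pairs, so that no 2 libraries agreed within sampling noise. Counts of called members are therefore also given with these pairs summed where that moves them by more than 1.5 times.

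The summed level of the 45 genes was highest in normal medium without LPS, at 3837 ± 267 CPM (SD) in wild-type and 3649 ± 296 CPM in knockout cells. Low medium brought it to 1478 ± 309 CPM in wild-type and to 658 ± 95.6 CPM in knockout cells. With LPS it was 2490 ± 151 CPM in wild-type and 2255 ± 39.8 CPM in knockout cells in normal medium, and 677 ± 71.7 and 494 ± 25.6 CPM in low medium. The wild-type and knockout libraries overlapped in normal medium without LPS and did not overlap in the other 3 conditions, where those of the knockout were lower.

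**Figure D1:**
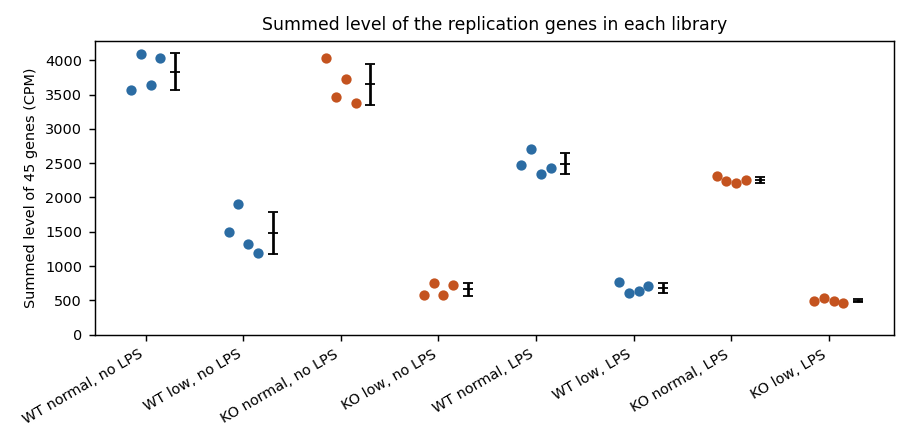
Summed level of the 45 replication genes (CPM) in each library of the 8 groups, with wild-type in blue and knockout (KO) in orange; black marks give the mean and SD of 4 libraries. The 4 knockout libraries in low medium without LPS lie between 572 and 753 CPM, all below the wild-type libraries in low medium, which lie between 1187 and 1899 CPM.

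**Figure D2:**
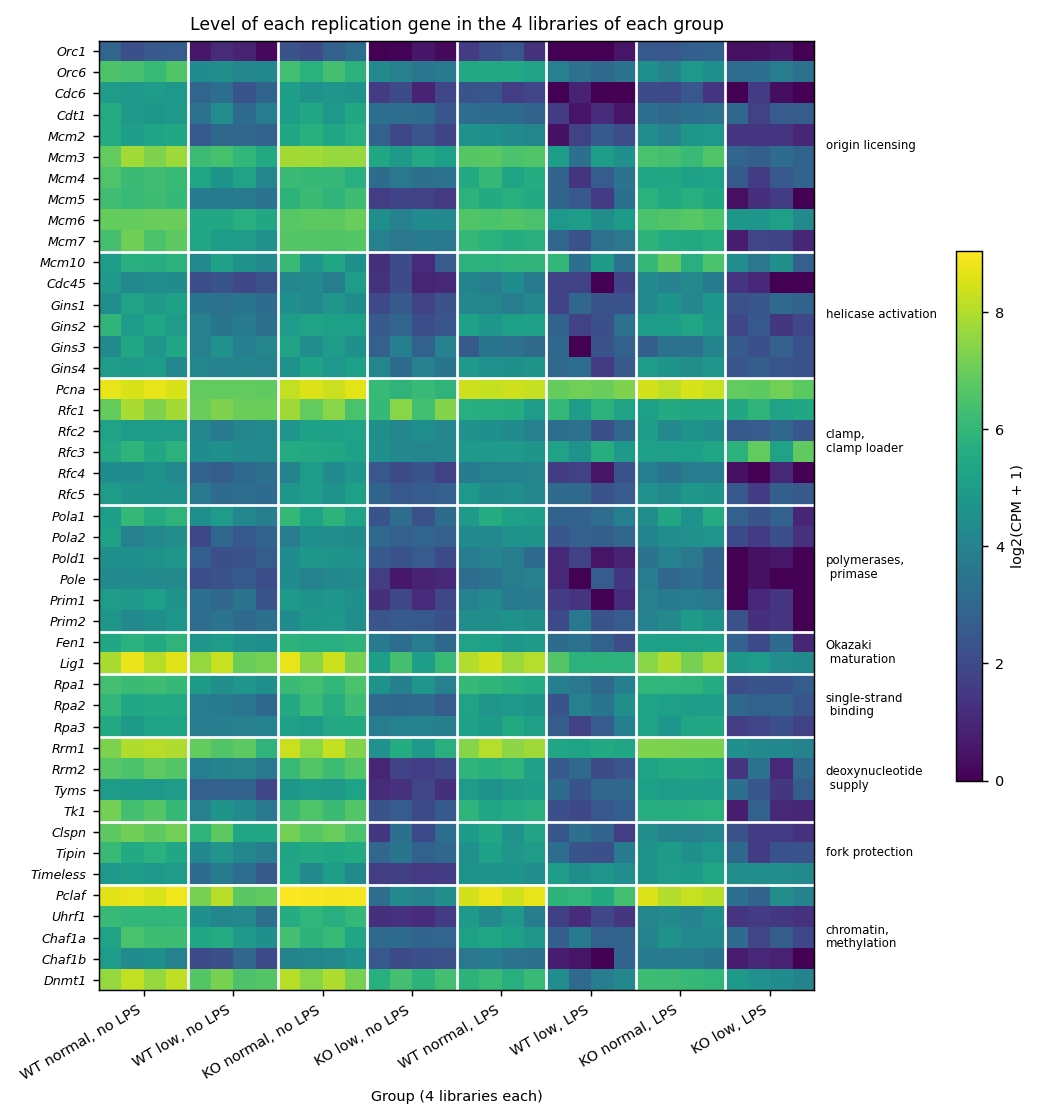
Level of every member, as log2(CPM + 1), in each of the 32 libraries, with members in rows ordered by role and 4 libraries per group. The columns of low medium are darker than those of normal medium for nearly every row, and Rfc1 is among the exceptions.

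The first comparison asked how the replication genes depend on M-CSF in wild-type cells. Without LPS, 43 of 45 members were lower in low than in normal medium and none was higher, where 21.9% of all genes were lower and 22.4% higher. The median log2 change of the members was -1.55, against 0.01 over all genes, and the median member kept 34.2% of its level. Origin licensing fell in all 10 of its members and polymerases and primase in all 6. The other roles also fell in all of their members, except helicase activation and clamp and clamp loader, with 5 of 6 each. The 2 members not called were Mcm10, which steadies the helicase (-0.94 ± 0.40, SE, adjusted p = 0.0541), and Rfc1, the large subunit of the clamp loader (-0.46 ± 0.27, adjusted p = 0.163).

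Mcm5 (Entrez 17218), a subunit of the MCM ring, had 75.7, 67, 74.8 and 65.4 CPM in the wild-type libraries in normal medium and 12, 12.2, 12.6 and 9.9 CPM in low medium. The groups were far apart, and the log2 change was -2.60 ± 0.22 (adjusted p = 9.7e-12). Rrm2 (Entrez 20135), the S-phase subunit of ribonucleotide reductase, had 102, 89.3, 115 and 98.9 CPM in normal medium and 14, 15.5, 16.3 and 11.2 CPM in low medium. Its change of -2.82 ± 0.29 (adjusted p = 5.11e-10) was among the larger ones. Pcna (Entrez 18538), the sliding clamp, had 421, 359, 416 and 366 CPM against 116, 117, 117 and 114 CPM. Its low-medium libraries were within a few CPM of each other, and it fell by 1.75 ± 0.14 on the log2 scale (adjusted p = 1.53e-12). The largest change among the members was that of Orc1, the large subunit of the origin recognition complex (-2.83 ± 0.49, adjusted p = 1.4e-05), and the smallest one called was that of Lig1, which joins Okazaki fragments (-0.77 ± 0.31, adjusted p = 0.0378). The groups of Lig1 overlapped, and its call was lost without library 2 or 4 in normal medium, without library 1, 3 or 4 in low medium, and with pairs summed.

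In knockout cells without LPS, low medium lowered 44 of 45 members and raised none, where 21.7% of all genes were lower and 26.6% higher. The median change was -2.68 against 0.10 over all genes, and the median member kept 15.8% of its level. Rfc1 alone was not called (-0.30 ± 0.27, adjusted p = 0.368), and the smallest change called was that of Rfc2, another clamp loader subunit (-0.75 ± 0.20, adjusted p = 0.00252). Rrm2 had 69.1, 97, 74.9 and 99.2 CPM in normal medium and 0.912, 2.54, 2.11 and 2.93 CPM in low medium. That is 2.5% of the level in normal medium and the largest change of any member (-5.22 ± 0.33, adjusted p = 1.6e-15). The 4 genes of deoxynucleotide supply (Rrm1, Rrm2, Tyms and Tk1) kept a median of 5.38% of their level in knockout cells, and 17.9% in wild-type cells. All 6 neutrophil markers found in the table were also higher in low than in normal medium in knockout cells, and 2 of the 6 in wild-type cells, and their part in these results was not tested.

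**Figure D3:**
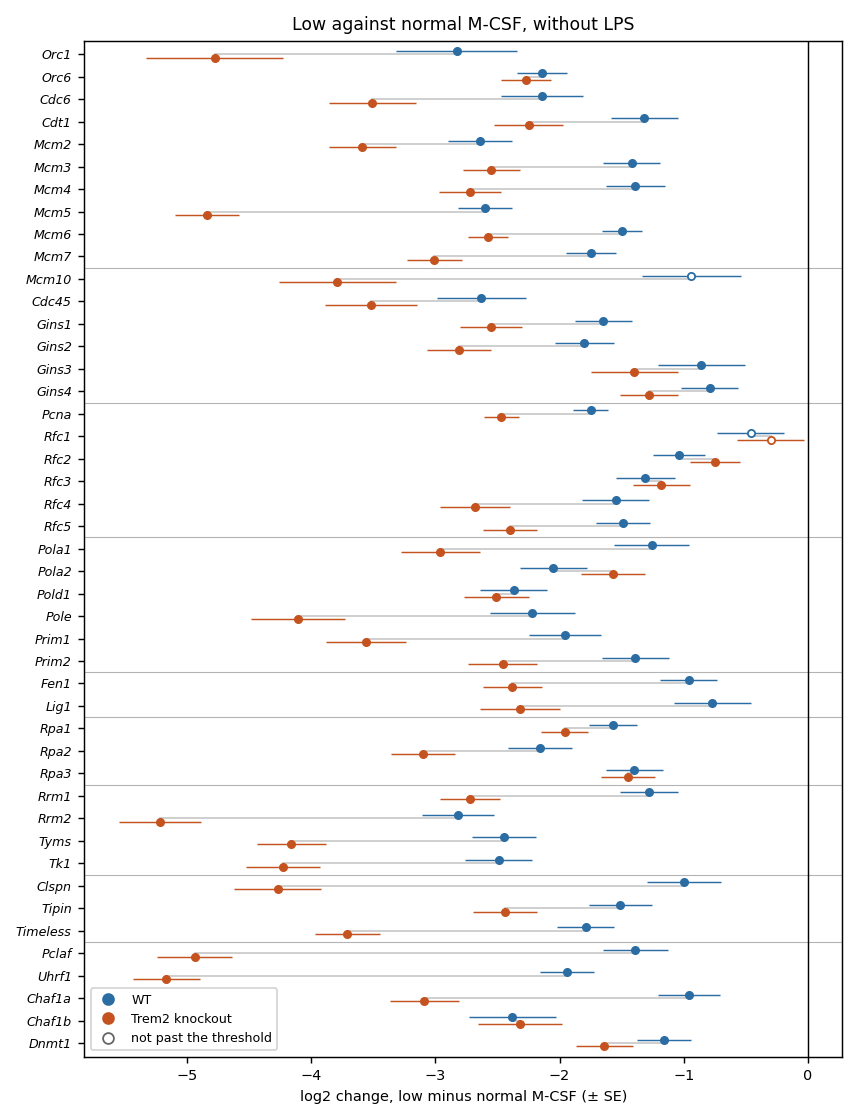
Log2 change between low and normal M-CSF without LPS for each member, ± SE, in wild-type (blue) and knockout cells (orange); open circles mark changes not called and thin lines separate the roles. Pclaf lies at -1.39 in wild-type and -4.94 in knockout cells, and Rfc3 and Chaf1b lie at nearly the same place in both.

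The interaction of genotype and medium asked whether the knockout changed the response to low M-CSF. Without LPS it was called for 21 of 45 members, all with a larger fall in knockout cells, where 3.21% of all genes had such a negative interaction and 1.41% a positive one. The median was -1.08 over members. With pairs of libraries summed, 6 members remained called, namely Mcm5, Clspn, Timeless, Pclaf, Uhrf1 and Chaf1a, where 92 of 12020 genes were lower and 5 higher. The largest interaction was that of Pclaf (-3.54 ± 0.37, adjusted p = 5.71e-08), a small protein that binds PCNA, and the smallest called was that of Pcna itself (-0.71 ± 0.19, adjusted p = 0.0221). The call of Pcna was lost without library 2 in wild-type normal medium, without knockout library 2 or 4 in either medium, with no filter and with pairs summed. All 4 genes of deoxynucleotide supply and both of Okazaki maturation (Fen1 and Lig1) were among the 21, while none of the 3 Rpa genes was. Rpa1, Rpa2 and Rpa3 encode the complex that coats single-stranded DNA.

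Pclaf (Entrez 68026) had 402, 432, 375 and 464 CPM in wild-type and 530, 499, 471 and 481 CPM in knockout cells in normal medium. In low medium it had 146, 270, 105 and 115 CPM in wild-type and 8.36, 19, 15.3 and 21.1 CPM in knockout cells. The knockout libraries all lay above the wild-type ones in normal medium, a difference that was not called, and all far below them in low medium. Uhrf1 (Entrez 18140), which brings the methyltransferase Dnmt1 to newly copied DNA, had 22.5, 16.8, 18.1 and 9.23 CPM in wild-type and 1.37, 1.45, 1.19 and 1.95 CPM in knockout cells in low medium. Clspn (Entrez 269582), claspin, an adaptor of the replication checkpoint, had 58.8, 107, 39.6 and 41 CPM in wild-type and 1.67, 8.79, 3.12 and 8.58 CPM in knockout cells in low medium. The genotypes did not overlap for either gene, and in the knockout libraries 2 and 4 had more Clspn than 1 and 3. Dnmt1 (Entrez 13433), which copies DNA methylation, had 99.5, 150, 91.8 and 98.4 CPM against 50.3, 81.3, 57 and 80.5 CPM in the same groups, and its interaction was not called (-0.48 ± 0.31, adjusted p = 0.473).

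Compared directly with wild-type cells in low medium without LPS, knockout cells were lower in 31 of 45 members and higher in none, where 8.97% of all genes were lower and 7.74% higher. The median log2 difference was -1.27. Uhrf1 (-3.43 ± 0.26, adjusted p = 1.97e-12), Clspn (-3.40 ± 0.34, adjusted p = 1.21e-09) and Pclaf (-3.30 ± 0.28, adjusted p = 3.19e-11) differed most, and Dnmt1 had the smallest difference called (-0.70 ± 0.22, adjusted p = 0.0257). The call of Dnmt1 was lost without wild-type library 2, without knockout library 1 or 3, and with pairs summed. Mcm10 (Entrez 70024), also chosen for display after its values were seen, had 19.1, 35, 23.6 and 18.6 CPM in wild-type and 1.37, 3.27, 1.1 and 5 CPM in knockout cells (-3.06 ± 0.46, adjusted p = 4.8e-06). All 4 genes of deoxynucleotide supply were lower, as were 8 of 10 licensing genes. In the single-strand binding complex none of 3 was called, and Rpa3 differed by 0.01 ± 0.23. The 6 neutrophil markers were all higher in these knockout cells than in wild-type cells, with a summed level of 146 to 209 CPM against 57.5 to 94 CPM, and none was at 0. The part of these markers in the result was not tested. Markers of myeloid progenitors, which divide, summed to 11.7 to 18.8 CPM in knockout and 4.23 to 10.8 CPM in wild-type libraries, and none of the 4 tested was called.

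In normal medium without LPS no member was called between the genotypes by edgeR, where 1.11% of all genes were lower and 0.747% higher in knockout cells. One member passed an unadjusted p under 0.05, and DESeq2 also called 0, where 202 of 11244 genes were lower and 157 higher. The log2 differences ran from -0.49 ± 0.22 for Gins1, a GINS subunit, to 0.27 ± 0.22 for Mcm3, with a median of -0.13 and a median SE of 0.24. With LPS in normal medium 1 of 45 members was lower in knockout cells and none higher, where 2.05% of all genes were lower and 1.98% higher. That member was Orc6 (Entrez 56452), the smallest subunit of the origin recognition complex, with 43.8, 44.1, 42.7 and 35.9 CPM in wild-type and 21.8, 15.6, 27.7 and 22.1 CPM in knockout cells. The groups did not overlap (-0.92 ± 0.20, adjusted p = 0.00365), but with pairs of libraries summed the call was lost (adjusted p = 0.153) and 0 members were called. In that setting 27 of 12020 genes were lower and 16 higher. DESeq2 called 2 members here, both lower, where 347 of 11244 genes were lower and 346 higher. Same-numbered libraries of these groups deviated together (correlations 0.107 to 0.308), and for that reason a block for the replicate number was added after seeing the data. In other compared groups they deviated in opposite directions, as between the media in knockout cells without LPS (-0.524 to -0.456), and no such fit was added there. What the replicate numbers share is not in the labels. The fit of the compared groups with this block called 5 members, all lower in knockout cells, where 640 of 10069 genes were lower and 631 higher. Besides Orc6 these were Chaf1a (-0.83 ± 0.15, adjusted p = 0.0034), a subunit of the chromatin assembly factor, Clspn (-0.94 ± 0.17, adjusted p = 0.00404), Lig1 (-0.46 ± 0.10, adjusted p = 0.00887) and Rrm1 (-0.44 ± 0.12, adjusted p = 0.0332), the large subunit of ribonucleotide reductase.

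**Figure D4:**
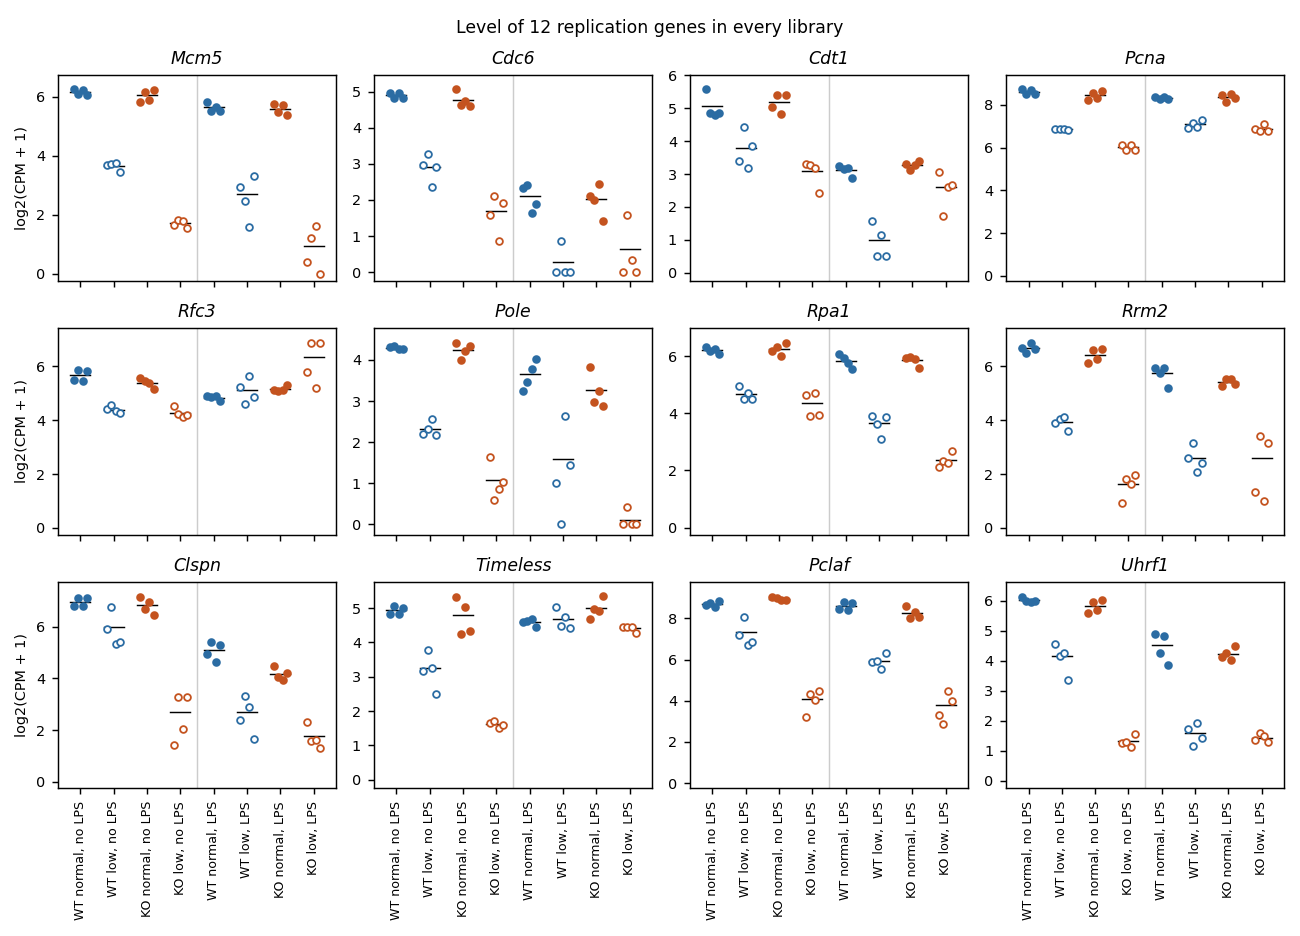
Level of 12 members as log2(CPM + 1) in every library, with wild-type in blue, knockout (KO) in orange, filled circles for normal and open circles for low M-CSF, libraries with LPS to the right of the grey line, and a bar at the group mean. Uhrf1 in low medium without LPS lies between 9.23 and 22.5 CPM in wild-type and between 1.19 and 1.95 CPM in knockout cells, and 2 of the 4 knockout libraries with LPS in low medium have more Rfc3 than any library of the other groups.

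LPS is known to stop macrophages from dividing, and the next comparisons gave its effect after 4 hours. In normal medium LPS lowered 26 of 45 members in wild-type cells and raised none, where 17.9% of all genes were lower and 18.3% higher. In knockout cells it lowered 24 and raised 1, where 21.8% of all genes were lower and 20.9% higher. The medians were -0.70 and -0.69. With pairs of libraries summed, 16 members were called in wild-type and 15 in knockout cells, where 1188 and 1579 of 12020 genes were lower and 1406 and 1625 higher. Neutrophil markers were higher with LPS in normal medium as well, with 4 of 6 called in wild-type cells (96.5 to 116 against 49.5 to 60 CPM, summed) and 5 of 6 in knockout cells (83.8 to 130 against 50.6 to 56 CPM), and their part in the result was not tested. Cdc6 (Entrez 23834), the loader of the MCM ring, had the largest change in both genotypes. It went from 30.5, 27.3, 30.2 and 27.3 CPM to 4.07, 4.36, 2.13 and 2.72 CPM in wild-type cells (-3.06 ± 0.35, adjusted p = 3.7e-09), and from 32.6, 23.7, 25.7 and 23.3 CPM to 3.28, 2.97, 4.45 and 1.66 CPM in knockout cells (-3.06 ± 0.36, adjusted p = 6.24e-09). The levels with LPS did not overlap those without it.

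Cdt1, Rfc1, Clspn, Uhrf1 and Dnmt1 also fell by more than the median in both genotypes, as the values of Cdt1 show. Cdt1 (Entrez 67177), the other loading factor, had 46.7, 28.1, 26.7 and 27.9 CPM without and 8.4, 7.9, 8.16 and 6.43 CPM with LPS in wild-type cells (-2.05 ± 0.28, adjusted p = 1.29e-07). Dnmt1 went from 196, 301, 194 and 290 CPM to 57.4, 68.7, 50.5 and 67 CPM (-2.01 ± 0.23, adjusted p = 3.58e-09). The smallest change called in wild-type cells was that of Mcm6 (-0.42 ± 0.15, adjusted p = 0.0294), which was lost without library 4 not given LPS, without library 2 or 4 given LPS, with no filter and with pairs summed. In knockout cells it was that of Fen1, the flap endonuclease (-0.63 ± 0.23, adjusted p = 0.0228). Among the members not called, Tyms (Entrez 22171), thymidylate synthase, had 30.9, 29.2, 27.1 and 30.1 CPM without and 31, 24.2, 28.7 and 32.4 CPM with LPS in wild-type cells (-0.01 ± 0.23). The gene called higher in knockout cells was Mcm10 (0.96 ± 0.40, adjusted p = 0.0489), whose groups overlapped. DESeq2, RLE size factors and the fit with pairs summed did not make this call, and it was lost without library 2, 3 or 4 not given LPS and without library 1, 2 or 4 given LPS (highest adjusted p 0.218 over 14 alternatives).

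In low medium LPS lowered 34 of 45 members in wild-type cells and raised 2, where 33.6% of all genes were lower and 27% higher. The median was -1.26. Of the neutrophil markers 4 of 6 were higher (175 to 199 against 57.5 to 94 CPM, summed), and their part was not tested. Cdc6 fell to 2 counts over all 4 libraries, against 187 without LPS, or 2.97% of the level (95% exact counting interval 0.357 to 10.9%). Such intervals cover counting error only. Orc1 had 1 count against 20. Clspn (-3.49 ± 0.39, adjusted p = 7.72e-10), Cdt1 (-3.58 ± 0.44, adjusted p = 6.19e-09) and Uhrf1 (-3.02 ± 0.32, adjusted p = 2.15e-10) were the next largest falls, and Mcm6 had the smallest fall called (-0.65 ± 0.17, adjusted p = 0.00104). The members that rose were Timeless, a partner of Tipin in fork protection (1.54 ± 0.24, adjusted p = 1.05e-06), and Rfc3, a small clamp loader subunit (0.77 ± 0.25, adjusted p = 0.00733). The call of Rfc3 was lost without library 3 with LPS (highest adjusted p 0.0723 over 14 alternatives) and with pairs summed.

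In knockout cells in low medium the members moved in both directions. LPS lowered 26 of 45 (57.8%), where 41% of all genes were lower. It raised 7 (15.6%), a smaller share than the 26.5% of all genes that were higher. The median over all genes was -0.36 (-0.25 with RLE size factors). The 7 that rose were Timeless (3.30 ± 0.27), Mcm10 (2.41 ± 0.48), Rfc3 (2.13 ± 0.24), Tyms (1.54 ± 0.33), Rrm2 (1.03 ± 0.40), Pcna (0.90 ± 0.14) and Mcm6 (0.52 ± 0.17). The TMM factors of these knockout libraries were 1.17 to 1.24 without LPS and 0.598 to 0.671 with LPS. Every change here is relative to this scaling. With RLE size factors 24 members were lower and 8 higher, where 4215 of 11244 genes were lower and 3230 higher. Polymerases and primase fell in 5 of 6 members, with Pold1, the catalytic subunit of polymerase delta, at 3 counts over 4 libraries against 197 without LPS. That is 6.2% of the level (95% exact counting interval 1.27 to 18.4%). Pole, the catalytic subunit of polymerase epsilon, was at 1 count against 49, or 8.31% (0.206 to 48.5%). Neutrophil markers summed to 222 to 379 CPM with LPS against 146 to 209 CPM without, with 2 of 6 called higher, and their part in the result was not tested.

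Timeless (Entrez 21853), whose library values were chosen for display after they were seen, had 2.13, 2.25, 1.83 and 2.01 CPM in knockout cells in low medium and 21, 21, 20.7 and 18.5 CPM with LPS. In wild-type cells it had 7.91, 12.7, 8.61 and 4.7 CPM without and 31.8, 21.5, 25.5 and 20.5 CPM with LPS. With LPS the groups of both genotypes lay above those without it. In normal medium with LPS, Timeless had 23.4, 23.9, 24.7 and 20.8 CPM in wild-type and 24.5, 30.7, 29.4 and 39.5 CPM in knockout cells. The media overlapped with LPS in wild-type cells, and in knockout cells low medium lay below normal. Rfc3 (Entrez 69263) had 22.2, 17.8, 16.2 and 17.1 CPM in knockout cells in low medium and 55, 116, 36.1 and 115 CPM with LPS. Libraries 2 and 4 were more than double libraries 1 and 3, and all 4 were above those without LPS. Rrm2 had 0.912, 2.54, 2.11 and 2.93 CPM without and 1.54, 9.66, 1.02 and 7.77 CPM with LPS, so that the groups overlapped and the rise rested on libraries 2 and 4. Without either of them, without library 1 not given LPS, with only the compared groups in the fit, or with pairs summed, Rrm2 was not called (highest adjusted p 0.509). The groups of Tyms and Mcm6 overlapped as well, and the call of Tyms held in all 14 alternatives. The rise of Mcm6 was lost without library 2 not given LPS, without library 3 given LPS and with pairs summed.

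Rpa1 (Entrez 68275), the large subunit of the single-strand binding complex, moved the other way. In knockout cells in low medium it had 24.2, 13.9, 25.1 and 14.4 CPM without and 3.4, 4, 3.84 and 5.34 CPM with LPS (-2.24 ± 0.24, adjusted p = 4.12e-10). Its groups did not overlap. Rpa3 (-2.34 ± 0.30, adjusted p = 2.21e-08) and Rfc4 (-3.07 ± 0.54, adjusted p = 6.92e-06) fell too, and Rpa2 was not called (-0.17 ± 0.31). The call of smallest size among those that fell was that of Tipin (-0.82 ± 0.32, adjusted p = 0.0244), which was lost without library 2 not given LPS, without library 2 or 3 given LPS, with RLE size factors, with only the compared groups and with pairs summed.

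**Figure D5:**
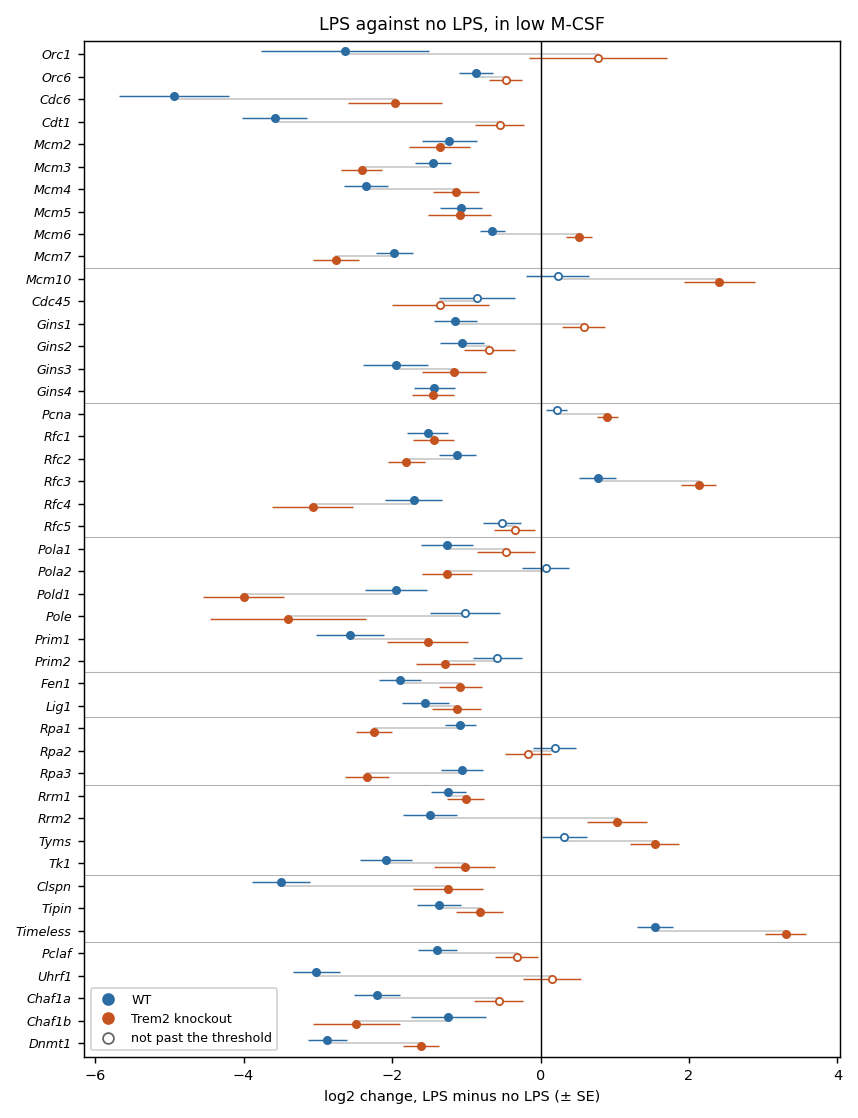
Log2 change between LPS and no LPS in low M-CSF for each member, ± SE, in wild-type (blue) and knockout cells (orange); open circles mark changes not called and thin lines separate the roles. Timeless lies at 1.54 in wild-type and 3.30 in knockout cells, and Rrm2 lies at -1.49 in wild-type and 1.03 in knockout cells.

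The interaction of medium and LPS asked whether the LPS effect depended on M-CSF. In wild-type cells it was called for 16 members, 13 with a lower and 3 with a higher LPS change in low than in normal medium, where 12.8% of all genes were lower and 10.7% higher. The 3 were Timeless (1.89 ± 0.33, adjusted p = 4.76e-05), Rfc3 (1.61 ± 0.34, adjusted p = 0.000571) and Pcna (0.53 ± 0.19, adjusted p = 0.0429), and Mcm4 had the most negative value called (-1.70 ± 0.38, adjusted p = 0.00113). With pairs of libraries summed 3 members were called, where 471 of 12020 genes were lower and 382 higher. Pcna was not among those 3 members, and its call was kept in 4 of 22 alternatives, being lost in 14 of the 16 that leave out a library (all but libraries 1 and 3 of low medium with LPS). In knockout cells 10 members (22.2%) were lower in this interaction, about the same share as over all genes (22%). Another 10 (22.2%) were higher, against 13.3% of all genes. With RLE size factors 8 were lower and 12 higher, where 1828 of 11244 genes were lower and 1859 higher. The 10 higher members were Timeless (3.10 ± 0.34), Rfc3 (2.37 ± 0.33), Rrm2 (2.06 ± 0.48), Uhrf1 (1.80 ± 0.46), Tyms, Cdt1, Orc6, Chaf1a, Pcna and Mcm6, the last with the smallest value (0.77 ± 0.23, adjusted p = 0.00809). Of these, Uhrf1, Cdt1, Orc6 and Chaf1a were not called higher with LPS in low medium. Rrm2, Uhrf1 and Tyms were at a few CPM in low medium without LPS (Tyms at most 2.75 CPM). A further fall with LPS would be hard to see at such levels. The 10 lower were Pold1 (-2.83 ± 0.67), Rfc4 (-2.22 ± 0.64), Rpa3 (-2.22 ± 0.38), Rpa1 (-1.84 ± 0.31), Chaf1b, Mcm7, Pola2, Rfc2, Gins4 and Mcm3. With pairs summed 11 of the 20 were called, where 1015 of 12020 genes were lower and 687 higher.

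With LPS, the medium lowered 41 of 45 members in wild-type cells and raised none, where 24.2% of all genes were lower and 21.4% higher. The median was -2.19 against -0.10 over all genes (0.01 with RLE size factors). The 4 not called were Gins3 (-0.87 ± 0.46), Rfc1 (0.07 ± 0.28), Rfc3 (0.30 ± 0.24) and Timeless (0.10 ± 0.23). Orc1 had 1 count over the 4 libraries in low medium against 84 in normal medium, or 3.45% of the level (95% exact counting interval 0.0864 to 19.8%), and Mcm10 had the smallest change called (-1.01 ± 0.42, adjusted p = 0.047). That call was lost in 11 of 14 alternatives, among them the removal of any library in normal medium or of library 2, 3 or 4 in low medium. In knockout cells 43 members were lower and 1 was higher, where 32.8% of all genes were lower and 26.5% higher. The median was -2.99 against -0.14 over all genes. Rfc3 was the one that rose (1.20 ± 0.24, adjusted p = 4.84e-05), and Rfc1 was not called (0.13 ± 0.28). The largest fall was that of Pole (-6.46 ± 0.76, adjusted p = 5.9e-09), with 1 count in low medium against 199 in normal medium. That is 0.955% of the level (95% exact counting interval 0.0241 to 5.38%). The smallest fall called was that of Timeless (-0.61 ± 0.23, adjusted p = 0.0231), which was lost without library 4 of either medium, with DESeq2, with RLE size factors and with pairs summed. With LPS the neutrophil markers were higher in low medium for 4 of 6 genes in wild-type (175 to 199 against 96.5 to 116 CPM) and 5 of 6 in knockout cells (222 to 379 against 83.8 to 130 CPM), and their part in the result was not tested. Mcm5 in knockout cells had 53.5, 44, 51.6 and 40.5 CPM in normal and 0.309, 1.33, 2.05 and 0 CPM in low medium (-5.48 ± 0.33, adjusted p = 1.45e-15). The wild-type values of Mcm5 were 56.4, 45.5, 50 and 45.5 CPM and 6.63, 4.55, 2.02 and 8.98 CPM. In both genotypes the media were far apart.

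Between the genotypes in low medium with LPS, 14 members were lower and 2 higher in knockout cells, where 10.9% of all genes were lower and 8.2% higher. With pairs of libraries summed 10 of the 16 were called, where 328 of 12020 genes were lower and 157 higher. With only the compared groups in the fit, 7 of the 29 members then tested were called, where 464 of 8583 genes were lower and 573 higher. Pole (Entrez 18973) had 0.994, 0, 5.25 and 1.71 CPM in wild-type and 0, 0.333, 0 and 0 CPM in knockout cells. That is 20 counts against 1, a knockout level of 4.2% (95% exact counting interval 0.101 to 26.3%). Mcm5 (-2.39 ± 0.42, adjusted p = 0.000117) and Pclaf (-2.23 ± 0.30, adjusted p = 1.6e-06) were lower, and Mcm5 overlapped between the genotypes in 1 library each. Among the genes that differed most without LPS, Uhrf1 (-0.25 ± 0.45) and Clspn (-1.16 ± 0.54) were not called. All 3 Rpa genes were lower in knockout cells, and Rpa2 had the smallest difference called (-1.02 ± 0.32, adjusted p = 0.0236). Without wild-type library 4 neither Rpa2 nor Rpa3 was called, and Rpa2 was also lost without wild-type library 2, without knockout library 4, with only the compared groups and with pairs summed. The members higher in knockout cells were Rfc3 (1.22 ± 0.24, adjusted p = 0.000497), whose groups overlapped, and Cdt1. Cdt1 had 1.99, 0.413, 1.21 and 0.428 CPM in wild-type and 7.41, 2.33, 5.12 and 5.34 CPM in knockout cells (2.23 ± 0.51, adjusted p = 0.00186). The groups of Cdt1 did not overlap. Neutrophil markers summed to 175 to 199 CPM in wild-type and 222 to 379 CPM in knockout libraries, with 1 of 6 called higher, and their part in the result was not tested.

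The interaction of genotype and medium with LPS was called for 7 members with a larger fall in knockout cells and for 1 with a smaller fall, where 3.29% of all genes were lower and 2.2% higher. The 7 were Mcm3, Mcm5 (-2.33 ± 0.48, adjusted p = 0.00387), Mcm7, Pole, Prim2, Pclaf (-1.88 ± 0.39, adjusted p = 0.00394) and Rpa1 (-1.52 ± 0.33, adjusted p = 0.00532), and the one with a smaller fall was Cdt1 (2.07 ± 0.59, adjusted p = 0.0334). The call of Cdt1 was lost without wild-type library 2 in either medium or library 4 in low medium, and without knockout library 2 or 3 in normal or 1 or 3 in low medium. With pairs of libraries summed none was called, but then only 1 of 12020 genes was lower and 0 higher, so this setting could call almost nothing. Without wild-type library 2 or knockout library 3 in normal medium, or without wild-type library 4 in low medium, 5 were called. In that order, 186 of 11361, 220 of 11359 and 207 of 11366 genes were then lower, and 136, 153 and 154 higher.

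Other genes of the cell cycle were taken from lists. Of 40 further replication genes, low medium lowered 26 and raised 3 in wild-type cells without LPS, and lowered 29 and raised 3 in knockout cells. Over all genes 21.9% were lower and 22.4% higher in wild-type cells, and 21.7% and 26.6% in knockout cells. Topoisomerase Top1 was the largest rise in wild-type (0.96 ± 0.25) and Dscc1, of an alternative clamp loader, the largest fall (-2.37 ± 0.54). Of 13 E2F factors, their partners and pocket proteins, 7 fell and 3 rose in wild-type cells and 9 fell and 2 rose in knockout cells. E2f7, a repressor of the family, had the largest fall in knockout cells (-4.30 ± 0.37), and the pocket protein gene Rb1 the largest rise in wild-type cells (0.72 ± 0.19). Of 22 regulators of S-phase entry, 18 fell and 1 rose in each genotype. The one that rose was Cdkn1b, the inhibitor p27 (1.15 ± 0.23 in wild-type and 1.57 ± 0.23 in knockout cells), and the largest falls were those of Myc in wild-type (-2.67 ± 0.33) and cyclin E2, Ccne2, in knockout cells (-5.49 ± 0.36).

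Between the genotypes in low medium without LPS, of the further replication genes 16 of 40 were lower in knockout cells, of the E2F list 6 of 13, of the regulators 11 of 22 and of 20 mitosis genes all 20, and none of these lists had a member that was higher, where 8.97% of all genes were lower and 7.74% higher. Nusap1, a spindle protein, had the largest difference among the mitosis genes (-2.90 ± 0.32, adjusted p = 1.64e-08). In normal medium without LPS 1 gene of these lists was called between the genotypes, cyclin D2 (Ccnd2), which was higher in knockout cells (1.01 ± 0.16, adjusted p = 0.000125). When LPS was given to knockout cells in low medium, it raised 6, 4, 5 and 3 genes of the 4 lists and lowered 14, 6, 10 and 12. In the order of the lists, that is 35%, 46.2%, 45.5% and 60% lower, where 41% of all genes were lower, and 15%, 30.8%, 22.7% and 15% higher, where 26.5% were higher. Those raised most were Dck, a salvage kinase (1.57 ± 0.24), Rbl1, the pocket protein p107 (3.73 ± 0.25), Ccnd2 (6.74 ± 0.21) and Mki67, the antigen Ki-67 (2.09 ± 0.44).

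Some limits bear on single members. The strand setting of the counting is not given in the sources used here, and 11 of the 45 genes overlap a protein-coding gene, among them Orc1, Rpa1 and Pclaf. Pcna and Tyms have named pseudogene copies that could share reads.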

How the data were processed

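Raw counts per gene were deposited, not normalised by the authors; STAR, HTSeq, DESeq2 and mm10 appear in the submitters' processing notes, with neither versions nor roles. Per the labels' protocols, cDNA was primed with barcoded oligo-dT and made into strand-specific libraries by PCR, with no molecular identifiers mentioned. Symbols came from the RefSeq table (GRCm38.p6) by Entrez identifier for 96.3% of identifiers.

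All 32 libraries were fitted with 1 mean per group (edgeR 4.0.16, R 4.3.3, TMM, filterByExpr, quasi-likelihood F test, two-sided, threshold 0.05 after Benjamini-Hochberg adjustment over 11244 genes). SE is the log2 change divided by the root of F. The 16 comparisons were 4 each of medium, LPS, genotype and interaction, and several share groups. Alternatives were RLE size factors, DESeq2 1.42.0, no filter, only the compared groups, libraries 1 and 3 and 2 and 4 summed, a replicate block, and each library left out. Replicate numbers come from the labels, which do not say what they share. Same-numbered libraries all correlated over 0.1 in 2 of the 12 pairs of groups compared, and there a block within the compared groups was added. The fits were tested on simulated counts, for the medium in wild-type cells and genotype in low medium, both without LPS. These counts were drawn independently for each library. They cannot show the effect of libraries 1 and 3, or 2 and 4, being alike. Motifs were searched in RefSeq promoters.

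The members and lists were chosen with earlier results of these data known. Any member could be named. Library values were given for some members of a longer set fixed by role, those on which a result turned, so this choice followed the results. They were also given for Timeless and Mcm10, which were outside that set and were chosen after their values were seen. In each comparison the largest and smallest called changes and, where 5 or fewer, the members not called were named.

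Ly6g of the neutrophil list was not matched.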

Additional observations from a re-analysis of the deposited data

Results flagged for a closer look

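Of 128 sets of 4 libraries (16 members in 8 groups), 11 held a library set apart from the other 3 by Dixon's test of the gap over the range, where chance alone flags about 1 in 20. In wild-type cells these were Cdt1 in normal medium without LPS (highest library 46.7 CPM), Orc6 in normal medium with LPS (lowest 35.9 CPM), Tyms (lowest 2.85 CPM) and Dnmt1 (highest 150 CPM) in low medium without LPS, and Cdc6 in low medium with LPS (highest 0.827 CPM). In knockout cells they were Rfc3 in normal medium with LPS (highest 38.9 CPM), Cdt1 (lowest 4.4 CPM) and Tyms (highest 2.75 CPM) in low medium without LPS, and Cdc6 (highest 2 CPM), Pole (highest 0.333 CPM) and Timeless (lowest 18.5 CPM) in low medium with LPS. The sets of Cdc6 and Pole hold a few counts each.

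Effects that differed between groups by the interaction test were those of the medium between genotypes, for 21 members without LPS and 8 with LPS, and those of LPS between media, for 16 members in wild-type and 20 in knockout cells. Without LPS, 3.21% of all genes had a lower and 1.41% a higher interaction of genotype and medium, against 21 and 0 members, and with LPS 3.29% and 2.2%, against 7 and 1. For medium and LPS the shares were 12.8% and 10.7% in wild-type cells, against 13 and 3 members, and 22% and 13.3% in knockout cells, against 10 and 10. With pairs of libraries summed the 4 counts were 6, 0, 3 and 11. Of 12020 genes, 92, 1, 471 and 1015 were then lower and 5, 0, 382 and 687 higher.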

How the results depend on the processing

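No called change of a member reversed in 6202 recomputations, 5809 kept their call and 393 lost it. Summing libraries 1 with 3 and 2 with 4, which leaves 2 samples a group, lost 93 of 405 calls. The called members were then 16 (LPS in wild-type cells, normal medium), 15 (LPS in knockout cells, normal medium), 0 (genotype in normal medium with LPS), 10 (genotype in low medium with LPS), 6 and 0 (genotype by medium without and with LPS), 3 and 11 (medium by LPS in wild-type and knockout cells). Of 12020 genes, in the same order, 1188, 1579, 27, 328, 92, 1, 471 and 1015 were then lower. Those higher were 1406, 1625, 16, 157, 5, 0, 382 and 687. For genotype in normal medium with LPS, DESeq2 called 2, and no filter or only the compared groups 3 each. All of these were lower, where 347 of 11244, 251 of 16467 and 409 of 10069 genes were lower. Those higher were 346, 197 and 457. For genotype in low medium with LPS, only the compared groups gave 7 of the 29 members tested, where 464 of 8583 genes were lower and 573 higher. Leaving out 1 library gave 5 to 10 members for genotype by medium with LPS. Without wild-type library 2 in normal medium (5 members), 186 of 11361 genes were lower and 136 higher. Without wild-type library 1 in low medium (10 members), 400 of 11366 genes were lower and 315 higher. The causes were not tested. In 6 of 28 pairs of groups every same-numbered pair of libraries correlated over 0.1 in its deviations from the group means, and over all groups the correlations ran from -0.524 to 0.489 with 12 of 32 libraries closest to their own number. For the 2 comparisons among those 6, LPS in wild-type cells and genotype with LPS, both in normal medium, the compared groups with a replicate block, added after seeing the data, gave 32 and 5 members. All of these were lower, where 2496 of 10855 and 640 of 10069 genes were lower and 2447 and 631 higher. Over all libraries, with a replicate block 43 members were called for the medium in wild-type cells without LPS. For LPS in normal medium in wild-type cells 25 were called, where Mcm5 lost its call. The block gave 1 for genotype in normal medium with LPS, 7 for genotype by medium with LPS and 15 for medium by LPS in wild-type cells. Of 11244 genes, in the same order, 2425, 1944, 210, 307 and 1374 were then lower. Those higher were 2492, 2019, 206, 207 and 1171. Depth limits members near the floor: Orc1, Cdc6, Pold1 and Pole have 1 to 3 counts in a group of low medium with LPS.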
